A study of Mus musculus with 4 samples.

Results

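Apolipoproteins are the protein parts of the particles that carry lipids in plasma. The set described here is a named list of 10 of their genes, Apoa1, Apoa2, Apoa4, Apob, Apoc1, Apoc2, Apoc3, Apoe, Apoh and Apom, taken by symbol from the 32285 genes of the count tables, where each symbol stands once. The list was given by name and not by any measured value, but was chosen with earlier results of these data known. The genes were followed through cells of dissociated livers of male mouse offspring, counted one cell at a time. At each of 2 ages there was 1 library from offspring of mothers with intrauterine hyperglycemia (IHG, high maternal blood sugar in pregnancy) and 1 from offspring of control mothers (Ctrl). Fetal IHG and fetal Ctrl livers were taken at E18.5, shortly before birth, and adult IHG and adult Ctrl livers at 8 weeks after perfusion through the portal vein. Each library was a pool, fetal ones from the litters of 3 pregnant mice and adult ones from 3 animals. The labels used here do not say how hyperglycemia was induced, nor the mouse strain. The series design asks about inflammatory features of the liver.

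Hepatocytes, the main cells of the liver, secrete most plasma apolipoproteins. Apolipoprotein B is the scaffold of very low density lipoprotein, which is assembled inside the cell with lipid loaded by the microsomal transfer protein. Apolipoproteins A-I and A-II form high density lipoprotein, which takes up cholesterol from cells. The small C apolipoproteins move between particles and tune how fast lipoprotein lipase strips their triglyceride. Apolipoprotein E is the ligand by which remnants are cleared by receptors of the liver, and macrophages also make it.

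In the mouse genome (build mm10, GENCODE M21 annotation) several of these genes lie side by side. Apoa1 (chr9:46228580-46230466, plus strand), Apoc3 (chr9:46232933-46235636, minus) and Apoa4 (chr9:46240696-46243459, plus) share a stretch of 43.3 kb with Apoa5. Apoc2 (chr7:19671579-19677941), Apoc1 (chr7:19689481-19692660) and Apoe (chr7:19696109-19699188), all on the minus strand, share 27.6 kb with Apoc4. Apoa2 (chr1:171225054-171226379, plus), Apob (chr12:7977648-8016835, plus), Apoh (chr11:108343354-108414396, plus) and Apom (chr17:35128997-35132050, minus) lie alone. All 10 are protein-coding genes. The annotated Apoc2 and Apoh genes overlap another gene on the same strand (Gm44805 and Gm11656), so reads in the overlap may be left out or shared in the authors' counting, and their values are uncertain to that extent.

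The 200 bases upstream of 3 members are shown because Apoa1 and Apoa2 parted between the fetal libraries and Apoe was found in many cell types. The bases come from RefSeq on GRCm38.p6, the genome of mm10, 5′ to 3′ on the gene's own strand. They are chr9:46228380-46228579 for Apoa1, chr1:171224854-171225053 for Apoa2 and chr7:19699189-19699388 for Apoe, each ending before the earlier of the RefSeq and GENCODE starts.
Apoa1: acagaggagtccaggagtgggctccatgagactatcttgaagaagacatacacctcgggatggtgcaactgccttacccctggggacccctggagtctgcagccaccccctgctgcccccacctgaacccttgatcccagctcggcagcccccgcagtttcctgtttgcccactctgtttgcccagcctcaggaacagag
Apoa2: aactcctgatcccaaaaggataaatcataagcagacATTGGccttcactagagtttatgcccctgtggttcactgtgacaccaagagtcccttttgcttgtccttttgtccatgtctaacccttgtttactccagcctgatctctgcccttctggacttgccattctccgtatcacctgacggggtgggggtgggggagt
Apoe: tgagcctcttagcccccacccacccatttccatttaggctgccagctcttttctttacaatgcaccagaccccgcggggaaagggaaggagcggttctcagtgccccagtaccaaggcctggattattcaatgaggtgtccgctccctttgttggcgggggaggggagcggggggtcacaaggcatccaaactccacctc
Capitals mark matches, on either strand, to TATAAA (core promoter element), AGGTCA (nuclear receptor half-site), GGGCGG (string bound by Sp1-type factors) and CCAAT (element of many promoters), which do not overlap each other in these windows. Apoa2 held 1 match, to CCAAT read on the opposite strand, and the Apoa1 and Apoe windows held 0. The Apoa1 window ended 51 bases before the RefSeq start, so the bases next to that start were not searched. Of 32851 promoter windows of the same length, 9.96% held TATAAA, 11.4% held AGGTCA, 31.0% held GGGCGG and 29.3% held CCAAT. Those windows each ended at the RefSeq start, unlike that of Apoa1. Promoters of 8 of the 10 members were in the table.

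The fetal IHG and Ctrl libraries held 8739 and 8500 barcodes with a median of 9116 and 6645 UMIs (unique molecular identifiers, each counting 1 captured mRNA end), and the adult IHG and Ctrl libraries 6851 and 5245 barcodes with 2235 and 2558. Any pair of libraries shared 8 to 26 barcodes, at most 0.380% of either library. Cells were clustered and classes were named from marker genes that hold no member. With 1 library per group there is no replicate check, so every difference below compares libraries and not conditions, no p-value is given, and all intervals are 95% intervals that cover counting error only. Levels are UMIs of a gene summed over a class, divided by all UMIs of the class and given per 1000000 UMIs (CPM). The method counts 3′ ends, so levels of different genes were not divided by length. A fetal hepatocyte-like class had 113 IHG and 111 Ctrl cells, 1.43% and 1.46% of kept cells, and all 12 hepatocyte markers were detected in both. Neither a hepatocyte-like nor a macrophage-like class was found in the adult libraries, so fetal and adult hepatocytes could not be compared.

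In the fetal hepatocyte-like cells Apoa1 and Apoa2, the main protein genes of high density lipoprotein, were the most abundant members. Apoa1 stood at 24497 CPM in IHG and 10878 CPM in Ctrl (29295 and 9350 UMIs), and Apoa2 at 8890 and 10255 CPM (10631 and 8815 UMIs). Apoa1 was thus ahead of Apoa2 in IHG, while in Ctrl the intervals of the pair, 10658 to 11100 CPM for Apoa1 and 10042 to 10472 CPM for Apoa2, lay close to each other without overlap. Such sums give cells with more UMIs more weight. Per cell the order in Ctrl was the other way, with medians of 9048 CPM for Apoa1 and 13465 CPM for Apoa2. Apom, which carries sphingosine-1-phosphate on high density lipoprotein, was at 1366 CPM in IHG and 1016 CPM in Ctrl. Apoe came next after the A genes in IHG, at 6761 CPM, and stood at 4610 CPM in Ctrl, where its interval (4468 to 4756 CPM) overlapped that of Apoc1 (4568 to 4859 CPM). Apoh, the phospholipid-binding beta-2-glycoprotein I, was at 3765 CPM in IHG and 2424 CPM in Ctrl.

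The genes of triglyceride-rich particles covered a wide range. Apoc1, which slows the uptake of remnants, was at 3933 CPM in IHG and 4712 CPM in Ctrl, and Apoc2, the activator of lipoprotein lipase, at 2377 and 1923 CPM. Apob was at 512 CPM in IHG and 355 CPM in Ctrl. Apoc3, an inhibitor of triglyceride clearance, was lowest of the 9 well-counted members, at 222 and 129 CPM. Apoa4, which is known chiefly from the intestine, had 2 UMIs in IHG and 0 in Ctrl, where 0 UMIs allow up to 3.49 CPM, and no comparison was made. Together the 10 genes made up 5.23% of the class UMIs in IHG and 3.63% in Ctrl. The maps of level by class show this hepatocyte row beside the other cells.

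**Figure D1:**
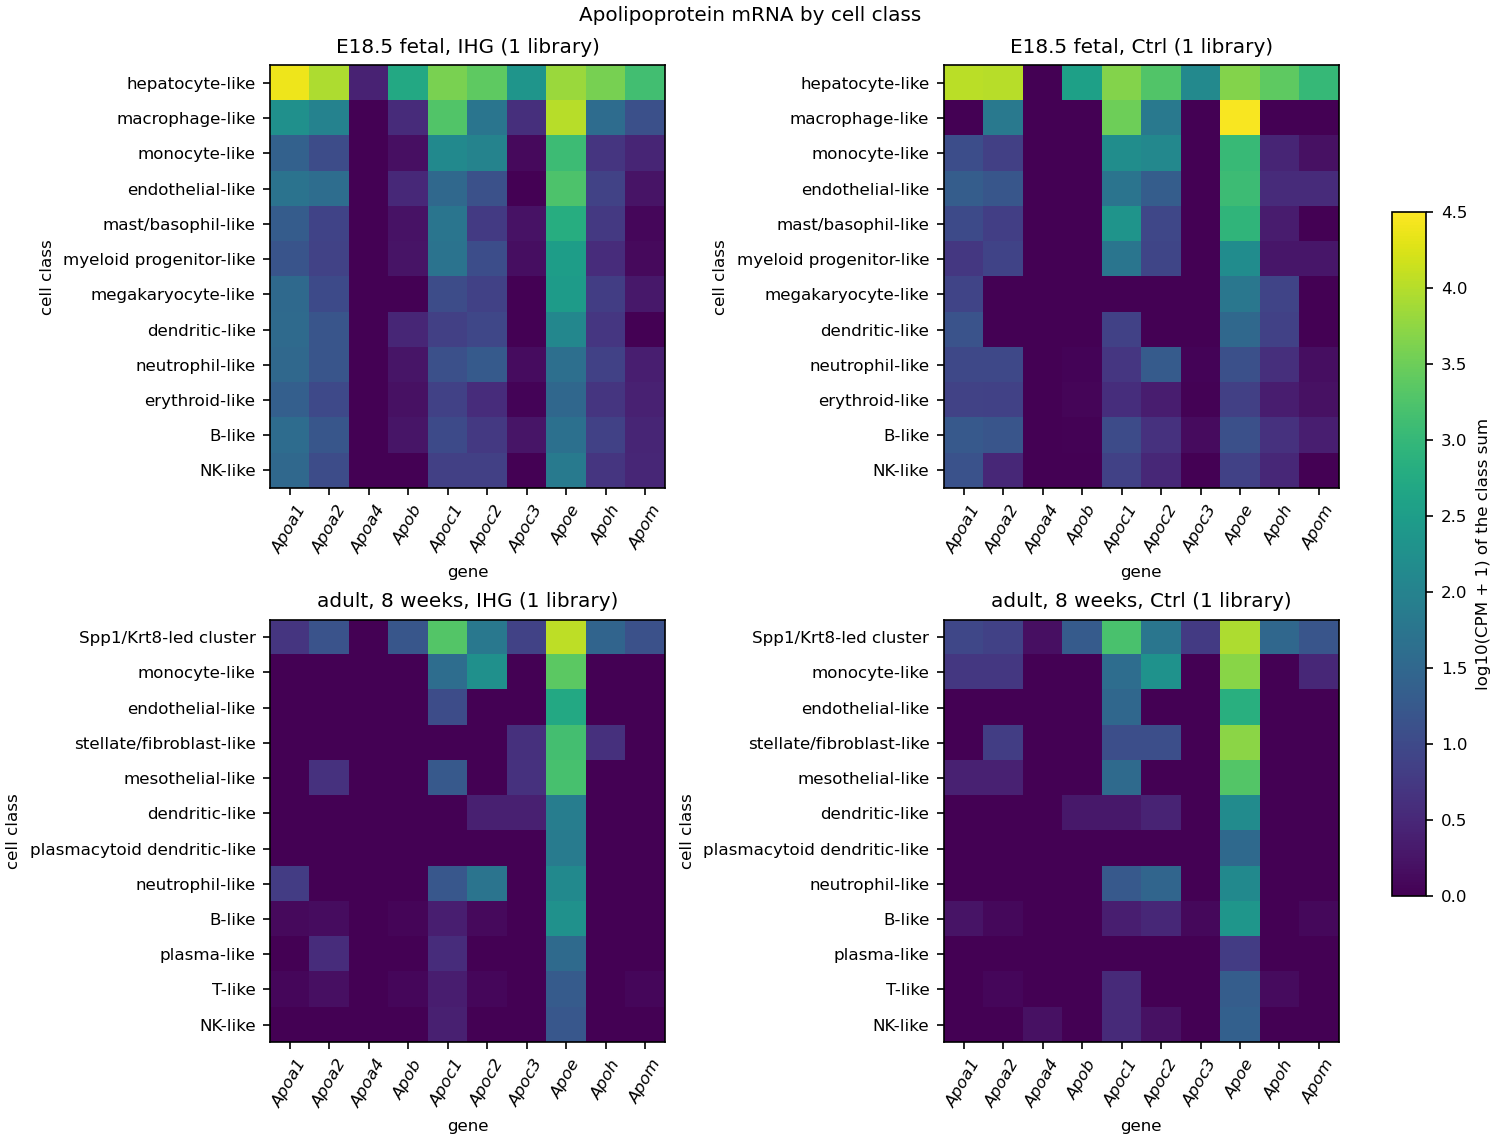
Level of each of the 10 genes (columns) in each cell class (rows), as log10(CPM + 1) of the class sum, with IHG on the left and Ctrl on the right and 1 library per panel. The fetal hepatocyte-like row is filled for 9 of the 10 genes, whereas in the adult panels colour is mostly limited to the Apoe, Apoc1 and Apoc2 columns.

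Set against Ctrl, most members were higher in the fetal IHG hepatocyte-like cells, Apoa1 by the widest margin of the 9. The log2 ratio of IHG over Ctrl was 1.17 for Apoa1 (interval 1.14 to 1.20), 0.78 for Apoc3 (0.45 to 1.11) and 0.63 for Apoh (0.56 to 0.71), and these 3 of 9 members were at least 1.5-fold higher, against 25.9% of the 5844 genes with at least 20 UMIs over both libraries. Apoe (0.55), Apob (0.53), Apom (0.43) and Apoc2 (0.31) were above 0 by less than 1.5-fold. Apoa2 (-0.21, interval -0.25 to -0.17) and Apoc1 (-0.26, -0.32 to -0.20) were lower in IHG, and 0 of 9 members were at least 1.5-fold lower, against 11.0% of genes. At 2-fold, Apoa1 alone of the 9 was higher, against 9.60% of genes. The median over the 9 members was 0.53, against 0.22 over all genes of the class.

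Haemoglobin mRNA moved with these ratios. Haemoglobin genes took 1.52% of the class UMIs in IHG and 14.2% in Ctrl, and cells in which they passed 10% numbered 7 of 113 in IHG and 19 of 111 in Ctrl, holding 4.31% and 35.0% of the UMIs. Without those cells haemoglobin was at 0.718% and 1.53%, and the members took 5.29% of UMIs in IHG and 5.01% in Ctrl. Apoa1 was still higher in IHG, at 24667 CPM against 15156 CPM in Ctrl (log2 ratio 0.70, interval 0.67 to 0.74), whereas Apoa2 was at 9089 against 14362 CPM (-0.66, -0.70 to -0.62) and Apoc1 at 4005 against 6360 CPM (-0.67, -0.73 to -0.60). That left 1 of 9 members at least 1.5-fold higher, against 21.0% of 5236 genes, and 2 of 9 at least 1.5-fold lower, against 9.36%. The other 6 members lay between -0.18 (Apoc2) and 0.25 (Apoc3), Apom with Apoc2 being below 0 at -0.08, and the members' median was 0.02, against 0.12 over all genes. Under every alternative run Apoa1 stayed at least 1.5-fold higher in IHG (log2 ratio 0.59 to 1.83). Apoa2 and Apoc1 were lower in IHG under all of them but 1: with each library clustered by itself they were higher, at 0.45 and 0.38.

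**Figure D2:**
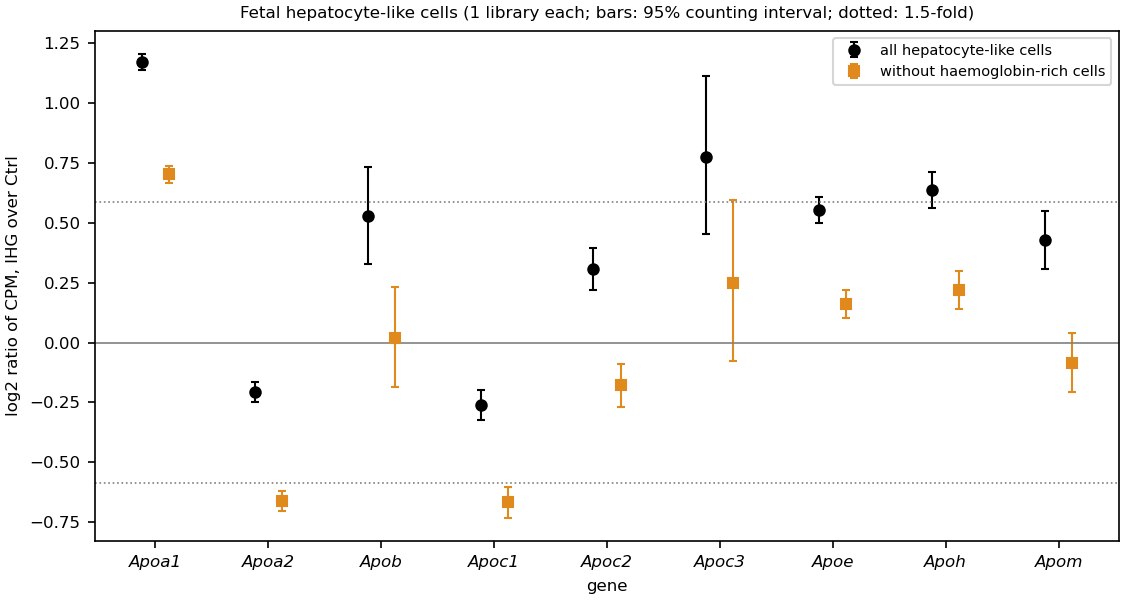
Log2 ratio of CPM, IHG over Ctrl, of 9 genes in fetal hepatocyte-like cells with all cells (circles) and without haemoglobin-rich cells (squares); bars are counting intervals and dotted lines mark 1.5-fold. Every gene moves down by about the same distance when those cells are left out, so that Apoa1 stays above 1.5-fold while Apoa2 and Apoc1 pass below it.

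The make-up of the apolipoprotein mRNA does not depend on how a class total is scaled. Of all member UMIs in hepatocyte-like cells, Apoa1 held 46.8% in IHG (interval 46.4 to 47.2) and 30.0% in Ctrl (29.5 to 30.5). Apoa2 held 17.0% in IHG and 28.2% in Ctrl. Apoc1 held 7.52% in IHG (interval 7.31 to 7.73) and a share with an interval of 12.6 to 13.4% in Ctrl. Apoa1 thus took a larger share of the mixture in IHG, with smaller shares for Apoa2 and Apoc1. Apoe held 12.9% in IHG and 12.7% in Ctrl, with overlapping intervals, and Apoh held 7.20% and 6.68%.

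The ratio of Apoa1 to Apoa2 UMIs, each summed over a class, gives the same contrast in 1 number. In hepatocyte-like cells it was 2.76 in IHG and 1.06 in Ctrl, and without haemoglobin-rich cells 2.71 and 1.06. Among all other kept cells, whose apolipoprotein counts were far lower, it was 2.40 in IHG (2921 over 1217 UMIs) and 1.19 in Ctrl (766 over 645 UMIs). It was 2.49 and 1.10 in erythroid-like cells, 2.61 and 1.18 in B-like cells, and 2.31 and 0.972 in neutrophil-like cells. In each of these sums the IHG value was above the Ctrl value with no overlap of the intervals of the share of Apoa1, and barcodes that the filters left out gave 3.47 and 1.74. The part of free hepatocyte RNA of the same library in these other sums was not tested. They are thus not independent repeats of the hepatocyte contrast. In the IHG library endothelial-like (1.26) and macrophage-like cells (1.83) had the lowest ratios of the named classes. Their Ctrl counts were few, 8 and 6 UMIs of Apoa1 and Apoa2 in endothelial-like cells (1.33, above the IHG value) and 0 and 1 in macrophage-like cells, and NK-like cells also had the higher ratio in Ctrl, 3.20 in IHG against 6 and 1 UMIs in Ctrl. Apoh to Apoa2 stood at 0.424 in IHG and 0.236 in Ctrl hepatocyte-like cells, and Apom to Apoa2 at 0.154 and 0.0990. Not every plasma protein followed Apoa1: Ttr to Alb was 0.313 in IHG and 0.615 in Ctrl.

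**Figure D3:**
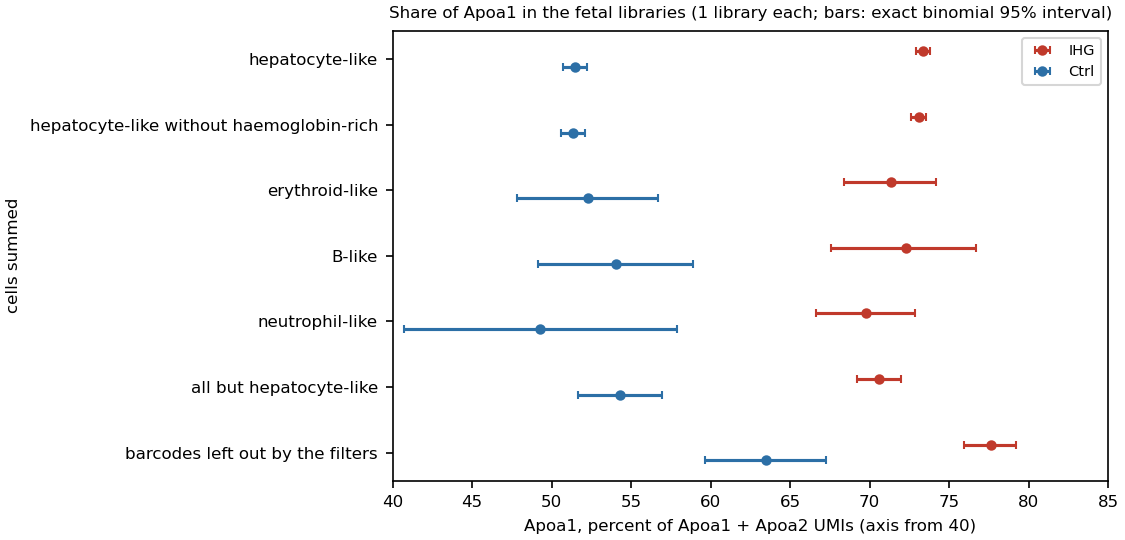
Share of Apoa1 among Apoa1 and Apoa2 UMIs (horizontal axis, percent, starting at 40) in sums over fetal cells, with 1 library per colour and exact binomial 95% intervals. The IHG points lie between 69.8% and 77.6% and the Ctrl points between 49.3% and 63.5%, in hepatocyte-like cells as in the low counts of other cells. The part of free hepatocyte RNA in those low counts was not tested.

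Single hepatocyte-like cells varied widely. Per cell, Apoa1 ranged from 0 to 68531 CPM in IHG with a median of 20994, and from 0 to 47680 CPM in Ctrl with a median of 9048. Apoa2 ranged from 0 to 20109 CPM in IHG with a median of 9738, and up to 45529 CPM in Ctrl with a median of 13465. The ranges overlapped for both genes, and the higher median was in IHG for Apoa1 and in Ctrl for Apoa2. The 2 IHG cells with 0 Apoa1 UMIs also had 0 Alb, and the 6 such Ctrl cells had Alb at 0 to 17220 CPM. An IHG cell with 49777 UMIs had Apoa1 at 20.1 CPM and Alb at 342 CPM. Whether cells with little Alb were hepatocytes was not tested. Apoe had medians of 5585 and 2813 CPM, Apoh of 3383 and 1997 CPM, and Apoc1 of 3581 CPM in IHG and 5714 CPM in Ctrl. Apob and Apoc3 were sparse, with a UMI in 54 and 58 of 113 IHG cells and in 44 and 40 of 111 Ctrl cells. Cells held a median of 6468 UMIs in IHG and 3628 in Ctrl, and when each was thinned to 1000 UMIs Apob was found in 18.4% of cells in both libraries and Apoc3 in 20.4% of IHG and 7.14% of Ctrl cells.

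**Figure D4:**
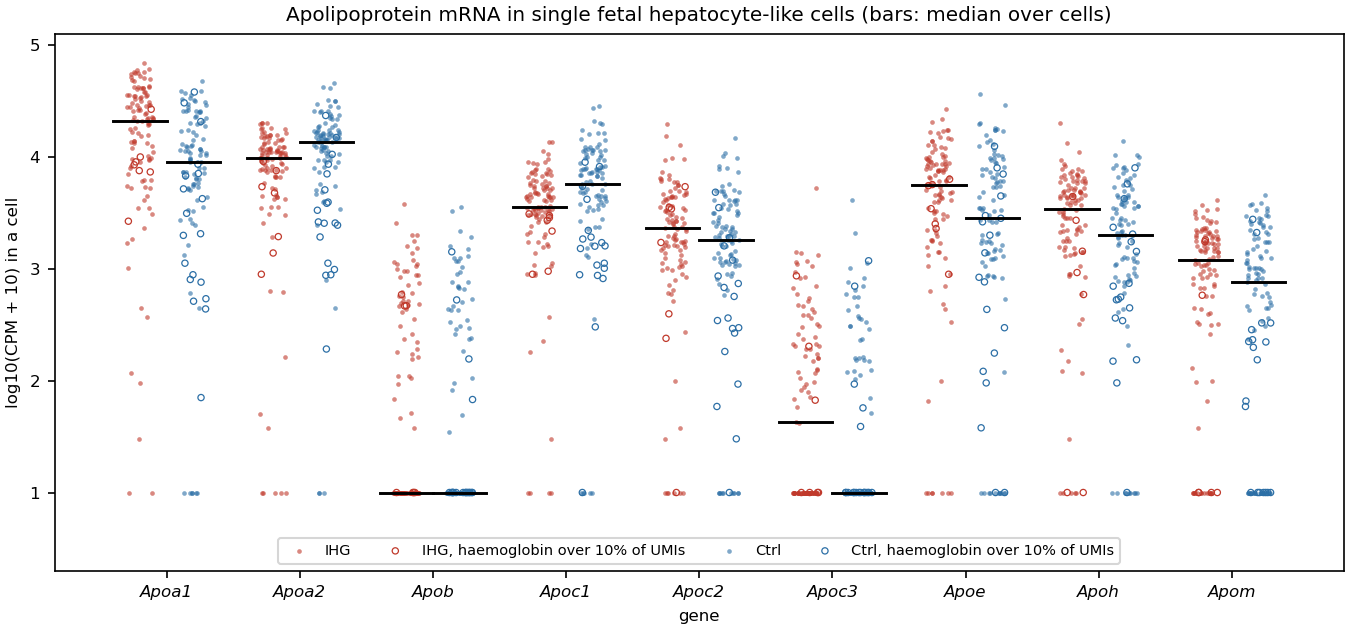
Log10(CPM + 10) of 9 genes (horizontal axis) in each fetal hepatocyte-like cell, 113 IHG cells (red, left) and 111 Ctrl cells (blue, right), with bars at the median over cells and open circles for cells with over 10% haemoglobin UMIs. The clouds overlap for each gene, the Apoa1 bar is higher in IHG, and open circles are more frequent in Ctrl.

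Across hepatocyte-like cells without haemoglobin-rich ones (106 IHG and 92 Ctrl cells), some members were high in the same cells in both libraries. As a description, with cells sharing a library and their CPM sharing a total, Spearman's rho was 0.88 in IHG and 0.81 in Ctrl for Apoa1 and Apoh, 0.85 and 0.81 for Apoe and Apoh, and 0.82 and 0.74 for Apoa1 and Apoe. Apom went along with Apoa1 at 0.76 and 0.67. Apoa2 had rho of 0.47 in IHG and 0.58 in Ctrl with Apoc1, beside 0.51 and 0.44 with Apoa1, 0.56 and 0.42 with Apom, and 0.46 and 0.43 with Apoc2, so no single partner stood out in both libraries. Apoc1 had rho near 0 with Apoe (0.15 and -0.13), although the genes are neighbours on chromosome 7. Apob had rho of 0.04 and -0.09 with Apoa2.

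Other genes of lipoprotein metabolism were read in the same fetal hepatocyte-like cells by how many passed 1.5-fold in IHG over Ctrl, first in all cells and then without haemoglobin-rich ones. Over all genes these shares were 25.9% higher and 11.0% lower in all cells, and 21.0% and 9.36% without haemoglobin-rich ones. Of other apolipoproteins and their partners, 5 of 10 measured were higher and 0 lower, and then 3 of 9 and 0. Apoa5, which promotes triglyceride clearance, stood at 36.8 CPM in IHG and 11.6 CPM in Ctrl (log2 ratio 1.61), whereas Apoc4 was at 1887 and 1902 CPM (-0.01). Of genes for particle assembly and secretion, 4 of 13 were higher and 1 lower, and then 0 and 3 of 12. Mttp, the microsomal transfer protein that loads apolipoprotein B, was at 36.8 CPM in IHG and 20.9 CPM in Ctrl from 44 and 18 UMIs (0.79, interval -0.01 to 1.69). Of receptors and uptake genes 1 of 9 was higher and 0 lower, and then 1 and 1 of 8.

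Among lipases, remodelling and cholesterol efflux genes, 3 of 10 were higher and 0 lower, and then 2 and 2 of 10. Angptl4, an inhibitor of lipoprotein lipase, stood at 47.7 CPM in IHG and 16.3 CPM in Ctrl (1.51), and Lpl, the lipase itself, at 436.5 and 247.8 CPM (0.81). Of transcription factors known to act on apolipoprotein genes, 5 of 16 were higher and 0 lower, and then 2 and 2 of 16. Creb3l3, a factor that activates Apoa4 and Apoc2 in mouse liver, was at 107 CPM in IHG and 52.4 CPM in Ctrl (1.02), and without haemoglobin-rich cells its log2 ratio was 0.54. Of 16 other plasma proteins of hepatocytes, 11 were higher and 1 lower, but 1 and 1 without haemoglobin-rich cells. Alb was at 32228 CPM in IHG and 25130 CPM in Ctrl (0.36), and without those cells at 32390 and 34358 CPM (-0.09).

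Outside hepatocytes, low counts of Apoa1, Apoa2, Apoh and Apom were found in each large fetal class. Hepatocyte-like cells held 90.9% of the Apoa1 UMIs of kept cells in IHG and 92.4% in Ctrl, 89.7% and 93.2% of Apoa2, and 91.1% and 93.4% of Apom. Apoa1 stood at 38.5 CPM in IHG and 17.0 CPM in Ctrl B-like cells, at 21.9 and 6.88 CPM in erythroid-like cells, and at 32.6 and 8.31 CPM in neutrophil-like cells. These levels lay far below the hepatocyte level, and their log2 ratios of IHG over Ctrl were 1.18, 1.67 and 1.96. Apoa1 to Apoa2 ratios in these IHG classes were 2.61, 2.49 and 2.31, beside 2.76 in hepatocyte-like cells. In Ctrl they were 1.18, 1.10 and 0.972, beside 1.06. IHG endothelial-like and macrophage-like cells lay further from the hepatocyte ratio, at 1.26 and 1.83, from 67 and 356 Apoa1 UMIs. The part of free RNA in these counts was not tested, and they are not read as expression.

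Apoe was the member found in the widest range of cells. In fetal macrophage-like cells, the resident phagocytes of the liver, it stood at 10414 CPM in IHG, from 352 cells and 20384 UMIs, above the 6761 CPM of hepatocyte-like cells. The Ctrl library had 6 macrophage-like cells with 449 Apoe UMIs (28793 CPM), of which 73.1% came from 1 cell, so any ratio between the libraries in this class rests on very few cells. All 10 macrophage markers were detected in both, and C1qa, C1qb and C1qc together had 27150 UMIs in IHG and 326 in Ctrl. Per cell the IHG macrophage-like cells had an Apoe median of 7675 CPM and a highest value of 86934 CPM, with a UMI in 94.3% of cells at a median depth of 1582 UMIs. Macrophage-like cells held 45.3% of all Apoe UMIs of kept cells in IHG and hepatocyte-like cells 18.0%, against 5.34% and 47.2% in Ctrl, in which macrophage-like cells were 0.0790% of kept cells beside 4.44% in IHG.

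Fetal endothelial-like cells had Apoe at 1735 CPM in IHG and 1229 CPM in Ctrl, with medians per cell of 1507 and 1256 CPM. Monocyte-like cells had 1192 and 1065 CPM (log2 ratio 0.16, interval 0.08 to 0.24), and mast/basophil-like cells 641 and 876 CPM (-0.45, -0.57 to -0.33), but over the alternatives these ratios ran from -0.15 to 0.27 and from -0.71 to 0.38. The order macrophage-like, hepatocyte-like, endothelial-like, monocyte-like, mast/basophil-like was thus the same in both fetal libraries, and no neighbours in it had overlapping intervals. Myeloid progenitor-like cells had 324 CPM in IHG and 154 CPM in Ctrl, a log2 ratio of 1.07 where 33.9% of genes were at least 1.5-fold higher, and the ratio was -0.81 when each library was clustered by itself. Apoe per UMI of Apoa1, Apoa2 and Apoh summed was set against the same ratio in hepatocyte-like cells of its library (the hepatocyte ratio). In endothelial-like cells it was 97.1 times the hepatocyte ratio in IHG and 165 times in Ctrl. In monocyte-like cells it was 174 and 292 times. Mast/basophil-like cells had 114 and 275 times, and myeloid progenitor-like cells 77.1 and 64.2 times. In Ctrl the summed UMIs of Apoa1, Apoa2 and Apoh were few, at 15, 30, 14 and 14 in the same order of classes. C1q UMIs numbered 168 in IHG endothelial-like and 276 in IHG monocyte-like cells. The parts of hepatocyte and macrophage RNA in the Apoe of these classes were not tested.

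In B-like, erythroid-like and neutrophil-like fetal cells Apoe was low and higher in IHG, at 44.2 against 11.7 CPM, 30.7 against 6.02 CPM and 42.8 against 11.7 CPM. C1q UMIs moved with it, with 167 in IHG and 10 in Ctrl B-like cells, 478 and 9 in erythroid-like cells, and 434 and 1 in neutrophil-like cells. Apoe per C1q UMI was 1.94, 2.04 and 1.83 in these 3 IHG classes, beside 0.751 in IHG macrophage-like cells. In the same 3 Ctrl classes it was 15.6, 25.8 and 97, from 10, 9 and 1 C1q UMIs. Against Apoa1, Apoa2 and Apoh summed, Apoe was at 4.08, 4.88 and 4.42 times the hepatocyte ratio in the 3 IHG classes. In the 3 Ctrl classes it was at 1.72, 2.13 and 3.00 times. The parts of hepatocyte and macrophage RNA in the Apoe difference were not tested, and these low values are not read as expression. Over the 11 named fetal classes other than hepatocytes in which Apoe had at least 20 UMIs, it was at least 1.5-fold higher in IHG in 7 and lower in 1, the macrophage-like class with its 6 Ctrl cells, where 56.0% of genes were lower. The share of genes at least 1.5-fold higher in those 7 classes was 16.5% in B-like, 14.6% in erythroid-like, 18.3% in neutrophil-like, 50.5% in NK-like, 25% in dendritic-like, 26.5% in megakaryocyte-like and 33.9% in myeloid progenitor-like cells. Apoe in NK-like cells (35 UMIs in IHG and 3 in Ctrl), dendritic-like cells (59 and 5) and megakaryocyte-like cells (325 and 8) rested on few Ctrl counts. In addition, 3 unnamed fetal clusters had Apoe at least 1.5-fold higher in IHG. The first, led by C1qtnf12 and Col5a1, had 102 CPM in IHG and 44.8 CPM in Ctrl (log2 ratio 1.19, beside 22.5% of genes higher), and the second, led by Gm42418 and Lars2, had 279 and 34.7 CPM (3.00, beside 15.3%). The third, led by Sparc and Col3a1, had 8 IHG cells and 1 Ctrl cell, with 246 and 7 UMIs (2.22, beside 23% of genes).

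Apoc1 and Apoc2 were each found in some of these cells as well. Fetal macrophage-like cells had Apoc1 at 1892 CPM in IHG (3704 UMIs) and 3270 CPM in Ctrl (51 UMIs), second to Apoe among the members. Monocyte-like cells had Apoc1 at 137 and 158 CPM. In mast/basophil-like cells Apoc1 stood at 55.0 CPM in IHG and 211 CPM in Ctrl (log2 ratio -1.95, interval -2.23 to -1.66), where 12.8% of genes were at least 1.5-fold lower. Apoc2 stood at 101 CPM in IHG and 127 CPM in Ctrl monocyte-like cells, and at 17.7 and 18.7 CPM in neutrophil-like cells (-0.08, -0.35 to 0.21), while Apoa1 in those neutrophil-like cells differed by 1.96 on the log2 scale. Apoc2 per UMI of Apoa1, Apoa2 and Apoh summed was 41.7 times the hepatocyte ratio in IHG and 83.7 times in Ctrl monocyte-like cells. In neutrophil-like cells it was 5.21 and 11.5 times.

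In the adult libraries Apoe was by far the most counted member, with 13760 UMIs in IHG and 24545 in Ctrl over all barcodes, followed by Apoc1 with 1728 and 3398. Apoa1, Apoa2, Apob, Apoc3, Apoh and Apom had 11 to 25 UMIs each in IHG and 13 to 64 in Ctrl. No named adult class held more than 3 UMIs of any of those 6. Alb, the hepatocyte transcript for albumin, stood at 2.09 CPM in IHG and 4.00 CPM in Ctrl adult B-like cells.

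The highest Apoe level of the adult cells was in an unnamed cluster led by Spp1 and Krt8 (82 IHG and 193 Ctrl cells). All 7 cholangiocyte (bile duct cell) markers were detected in it, with Epcam in 100% and 96.4% of cells and Sox9 in 93.9% and 92.2%. Among its 10 leading genes, hepatocyte markers (Ttr and Alb) outnumbered cholangiocyte ones (Cldn7), so by the naming rule it stays unnamed. Of the 12 hepatocyte markers, 9 in IHG and 7 in Ctrl reached 10 CPM. Cps1 had 0 and 1 UMIs, and Hnf4a was found in 13.4% and 16.6% of the cluster's cells. Apoe stood there at 11354 CPM in IHG and 8935 CPM in Ctrl (log2 ratio 0.35, interval 0.31 to 0.38), and Apoc1 at 1999 and 1639 CPM (0.29, 0.20 to 0.38). Every IHG cell and 192 of 193 Ctrl cells held an Apoe UMI. The cluster held 67.5% of the Apoe UMIs of kept adult cells in IHG and 73.8% in Ctrl, and 96.1% and 97.5% of Apoc1. Apoc2 was at 63.1 and 57.4 CPM.

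The cluster held many Alb and Ttr UMIs beside few of Apoa1 and Apoa2. Alb stood at 1920 CPM in IHG and 1824 CPM in Ctrl and was found in 100% and 97.9% of cells, and Ttr at 1788 and 1550 CPM. Apoa1, in contrast, had 3 UMIs in IHG and 15 in Ctrl, and Apoa2 had 10 and 12. Apoa1 per Alb UMI was 0.760 in IHG and 0.433 in Ctrl fetal hepatocyte-like cells. Without an adult hepatocyte-like class, this ratio was not measured in adult hepatocytes. In the adult cluster Apob had 11 and 35 UMIs, Apoh 20 and 58, and Apom 9 and 27. Apoh, the highest of them, was at 26.9 CPM in IHG and 30.8 CPM in Ctrl.

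Adult monocyte-like cells had Apoe at 2295 CPM in IHG and 5007 CPM in Ctrl, a log2 ratio of -1.13 (interval -1.22 to -1.03) where 9.66% of genes were at least 1.5-fold lower. C1q genes moved with it, at 31 UMIs in IHG and 340 in Ctrl, and of the 10 macrophage markers Cd5l, Vsig4, Clec4f, Timd4 and Marco were at 0 in both libraries. The C1q UMIs came from 4 of 120 IHG cells and 12 of 89 Ctrl cells. Without those cells Apoe stood at 2271 CPM in IHG and 2393 CPM in Ctrl (log2 ratio -0.08), so the difference in the class sum rested on them. Apoc2 was at 183 and 193 CPM in all monocyte-like cells, and Apoc1 at 39.5 CPM in both.

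Among adult stromal cells, the stellate/fibroblast-like class of 61 IHG and 44 Ctrl cells had Apoe at 1405 and 5200 CPM, a log2 ratio of -1.89 (interval -2.05 to -1.72) where 18.2% of genes were at least 1.5-fold lower. Per cell the median was 528 CPM in IHG and 3520 CPM in Ctrl, and 70.5% of IHG and 95.5% of Ctrl cells held a UMI, or 42.1% and 85.4% after thinning to 1000 UMIs. The fibroblast marker Dcn was found in 100% of cells of both libraries, while the stellate cell markers Lrat and Reln and the pericyte marker Rgs5 had 0 UMIs in both, so stellate cells were not detected by these markers and the class is described by its fibroblast genes. Pdgfra was at 376 CPM in IHG and 397 CPM in Ctrl, and Pdgfrb at 125 and 77.3 CPM. Mesothelial-like cells had Apoe at 1548 CPM in IHG and 2011 CPM in Ctrl, and endothelial-like cells at 513 and 700 CPM, both within 1.5-fold. Over the 9 named adult classes and the Spp1/Krt8-led cluster, all with at least 20 Apoe UMIs, 3 were at least 1.5-fold lower in IHG, the third being dendritic-like cells at 80.2 CPM in IHG and 145 CPM in Ctrl, where 8.90% of genes were lower and 77.6% of the Ctrl UMIs came from 1 cell.

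In adult B-like cells Apoe was low. It stood at 191 CPM in IHG and 232 CPM in Ctrl, against 18.6 and 19.9 CPM in T-like cells and 15.5 and 22.9 CPM in NK-like cells, while neutrophil-like cells had 136 and 135 CPM. A UMI was found in 22.4% of IHG and 25.7% of Ctrl B-like cells at median depths of 2008 and 2219 UMIs, and in 4.69% and 5.70% of T-like cells at 2851 and 2899. After thinning to 1000 UMIs the shares were 14.2% and 16.0% in B-like cells and 1.99% and 1.95% in T-like cells, so the gap between B-like and T-like cells remained at equal depth, with no overlap of their intervals. In the 4 larger B-like clusters Apoe ranged from 169 to 223 CPM in IHG and from 221 to 247 CPM in Ctrl, whereas a smaller one stood at 120 CPM in IHG and 119 CPM in Ctrl from 14 and 7 UMIs. C1q had 4 and 1 UMIs in all B-like cells. The fetal B-like level was 44.2 CPM in IHG and 11.7 CPM in Ctrl. The plot of Apoe by class shows the order of all classes.

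**Figure D5:**
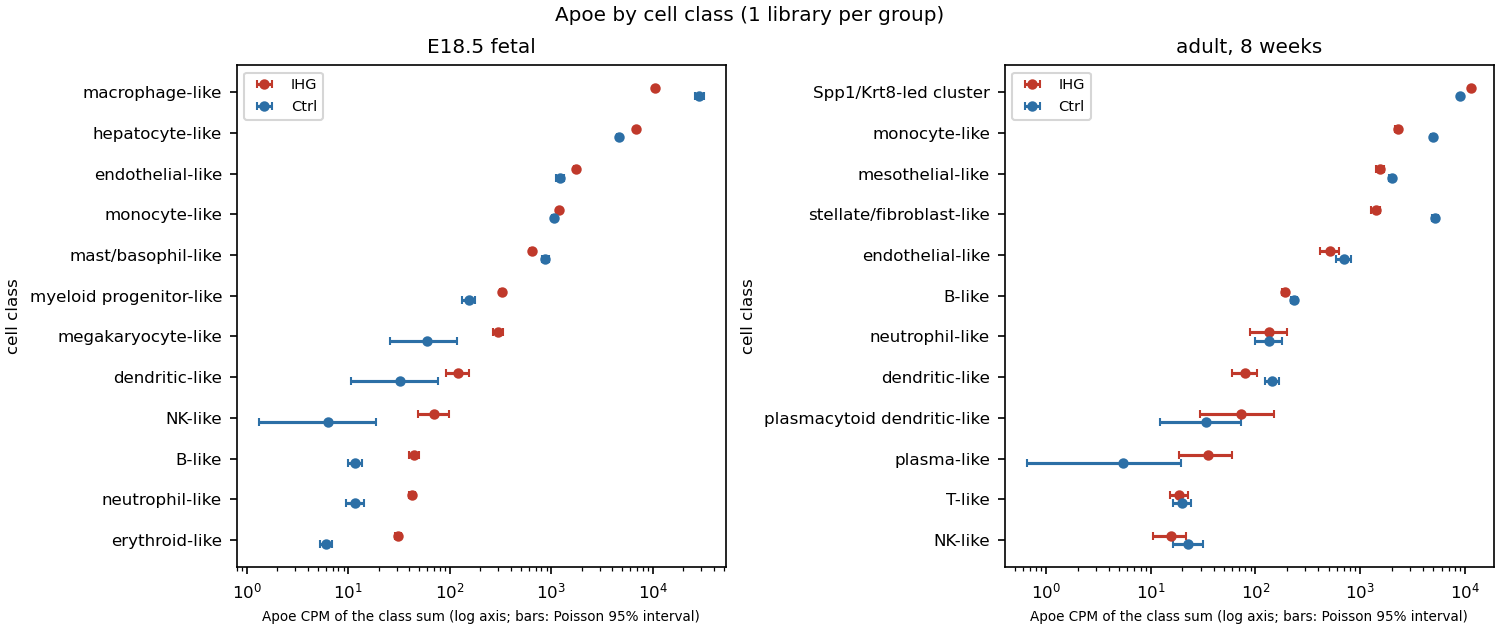
Apoe CPM of the class sum (log axis) by cell class, fetal on the left and adult on the right, IHG in red above Ctrl in blue, with exact Poisson 95% intervals and 1 library per group. Levels range from 6.02 to 28793 CPM in the fetal panel and from 5.42 to 11354 CPM in the adult panel, and the adult stellate/fibroblast-like and monocyte-like classes are lower in IHG.

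As a last description, the genes whose level was most like that of each member were found over 40 class sums with at least 50 cells, from 11056 genes, by Pearson's r of log2(CPM + 1). The class sums share libraries and free RNA. Among genes other than the members, Apoa1 was closest to Afp (r 0.96), Apoa2 to Serpina1e (0.97), Apoh to Fga (0.98), Apom to Uox (0.97), Apob to Selenbp2 (0.98) and Apoc3 to Serpina7 (0.96), all genes of hepatocytes. Apoc1 was closest to Alb at 0.82 and Apoc2 to Vnn3 at 0.83, and Apoe to Hpgd at 0.86. Between members, Apoa1 and Apoa2 had an r of 0.97 over the class sums, while Apoe and Apoa1 had 0.32. Apoe and its neighbour Apoc1 had 0.75.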

How the data were processed

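Cells of 4 pooled liver libraries were captured with a 10x 3′ kit, and the deposited tables give raw UMI counts for each gene in each barcode; per the file headers the authors made them with Cell Ranger 5.0.0. The submitters' processing notes name mm10, Cell Ranger and Seurat, with no role for the last. From these counts, barcodes were kept if 300 genes or more were detected and mitochondrial UMIs did not pass 25%. Doublets were scored with Scrublet, using its own threshold in the fetal libraries (267 IHG and 107 Ctrl removed) and the 95th percentile in the adult ones (286 and 244), where its own threshold marked 0.0147% and 0.0%. Kept cells numbered 7925, 7594, 6500 and 4951 for fetal IHG, fetal Ctrl, adult IHG and adult Ctrl. Cells of each age were clustered with scanpy 1.11.5 and leidenalg 0.10.2 on 2000 genes without the 10 members, 30 components, 15 neighbours and resolution 1.0. A cluster took a class name from its markers, by a rule set after the clusters were seen; it needed at least 3 detected markers, and a cluster led by more markers of another class stayed unnamed.

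UMIs were summed per class and library. Log2 ratios of IHG over Ctrl used 0.5 added counts, exact conditional Poisson intervals, and at least 20 UMIs over both libraries for a call of 1.5-fold. With 1 library per group no test was made. A count of 0 allows up to 3 counts. The ratios were checked on simulated counts. Named genes are all 10 members, plus genes of lipoprotein lists by role. The members and lists were chosen with earlier results of these data known. Alternatives were other scalings, filters, doublet handling, resolutions, equal cell weights, thinning to 1000 UMIs and leaving out single cells; leaving out haemoglobin-rich cells and scaling by plasma proteins were added after seeing the data.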

Additional observations from a re-analysis of the deposited data

Results flagged for a closer look

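Apoe in dendritic-like cells differed in direction between the ages. The log2 ratio of IHG over Ctrl was 1.76 in the fetal libraries, from 59 UMIs in IHG and 5 in Ctrl, and -0.84 in the adult libraries, from 54 and 156 UMIs. The difference between the ages was not tested, since each group is 1 library. In the adult Ctrl library 77.6% of the UMIs came from 1 cell, and without the top cell of each library the adult log2 ratio was 0.90.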

How the results depend on the processing

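No paired analysis was possible because each group is 1 library. In fetal hepatocyte-like cells the members' median log2 ratio, 0.53 as reported, was 0.31 with median-of-ratios scaling and with totals without technical genes, 0.28 with equal cell weights and with thinning, 0.26 with a mitochondrial maximum of 50%, 0.64 with at least 500 genes, 1.21 with each library clustered by itself, 0.021 without haemoglobin-rich cells and -0.057, reversed, scaled by other plasma proteins. Members at least 1.5-fold higher, 3 as reported, were 1 with median-of-ratios scaling, totals without technical genes, equal weights, the 50% maximum, no haemoglobin-rich cells or plasma protein scaling, 1 at 2-fold, 5 with at least 500 genes and 7 with each library by itself. Members lower, 0 as reported, were 1 with equal weights, thinning or the 50% maximum, and 2 without haemoglobin-rich cells or with plasma protein scaling. Of named fetal classes, 3 rather than 7 had Apoe higher with each library by itself, and 2 rather than 1 had it lower with median-of-ratios scaling or totals without technical genes, against 0 without the top cell. Wherever recomputed, Apoe stayed at least 1.5-fold higher in B-like, erythroid-like, neutrophil-like, NK-like, dendritic-like and megakaryocyte-like cells. Its lowest log2 ratios there were 1.73, 2.18, 1.25, 2.24, 0.63 and 2.15. Of named adult classes and the Spp1/Krt8-led cluster, 1 rather than 3 had it lower with doublets kept or at resolution 0.5, and 1 rather than 0 had it higher without the top cell. Apoe reversed to 0.90 in adult dendritic-like cells without the top cell and to -0.81 in fetal myeloid progenitor-like cells with each library by itself. Apoa1 in fetal hepatocyte-like cells stayed between 0.59 and 1.83, while Apoa2 ran between -0.79 and 0.45. Of 503 recomputed values over 42 gene and class pairs, 367 stayed within their counting interval. Of the rest, 2 were values past 1.5-fold that reversed, and 134 moved. In fetal hepatocyte-like cells alone, 44 of 126 recomputed values stayed within their counting interval, 82 moved and 0 reversed from past 1.5-fold. A sign other than that reported was found for 37 of the 503 values, in 17 pairs, and all but the 2 had been within 1.5-fold. The causes were not tested. Depth limits Apoa4 everywhere and the hepatocyte members in adult cells.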
